A study of Homo sapiens with 6 samples.

Results

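Collagens and the enzymes that modify them were followed in HN12 cells, which derive from a squamous carcinoma of the head and neck and grow as an established line, after 24 h with CPI-613. The set holds every gene of the deposited gene table whose symbol reads COL, a number, A and a number, leaving out COL7A1 and COL17A1, together with the lysyl oxidases (LOX, LOXL1, LOXL2, LOXL3, LOXL4), the lysyl hydroxylases (PLOD1, PLOD2, PLOD3), the catalytic alpha subunits of prolyl 4-hydroxylase (P4HA1, P4HA2, P4HA3) and the chaperone gene SERPINH1. This gave 49 of 16330 genes, of which 37 are collagen chains and 12 are enzymes or the chaperone. The Control group was HN12 grown with DMSO, the solvent, and the other group was HN12 grown with CPI-613 (devimistat), a lipoate analogue directed against mitochondrial pyruvate and 2-oxoglutarate dehydrogenase, with 3 libraries in each. The labels give no dose. All 6 libraries come from the same line in DMEM with 10% FBS, with no other agent or genetic change named in the labels, and HN12 is a single line without stroma, so fibroblasts, the main collagen producers of a tumour, are not part of the model.

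Collagen chains wind around each other into a helix inside the endoplasmic reticulum. Prolyl 4-hydroxylases stabilise that helix, lysyl hydroxylases prepare the sites of later cross-links, and HSP47, the product of SERPINH1, holds the folded molecule until export. Outside the cell, lysyl oxidases oxidise lysine residues so that neighbouring molecules become covalently joined. Squamous epithelium contributes mainly basement membrane chains, and the lysyl oxidases and PLOD2 are widely studied in carcinoma as enzymes that stiffen the surrounding matrix.

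The libraries held 11531949 to 15486514 estimated counts. Levels are given as CPM, counts scaled to a common library size after TMM scaling of the library totals. Where genes are compared with each other, levels are given as FPKM, which divides by transcript length and is scaled to the library total alone. Separate cultures are not named in the labels, so a p-value here sets a difference against the scatter of these libraries, and that scatter may be technical. Libraries differed along the GC content of transcripts. Per 10 percentage points of GC content the log2 level moved by -0.19, 0.09 and -0.25 in Control replicates 1 to 3 and by -0.38, 0.10 and 0.64 in CPI-613 replicates 1 to 3, relative to the mean of all 6. Because the 32 members that could be tested range from 37.6% to 67.4% GC, each result was computed again with the GC and length trends of every library taken out (GC- and length-adjusted).

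Of the 49 members, 32 passed the filter on low counts and 17 did not. The 17 had 1 to 51 counts over the 6 libraries together and included COL3A1, COL2A1, COL11A1, COL10A1, COL14A1, COL6A3, COL4A3, COL4A4 and P4HA3. Among the 32, the highest length-scaled levels in Control belonged to SERPINH1 with 273 ± 36.7 FPKM (mean ± SD, n = 3), PLOD1 with 152 ± 8.21 and LOXL2 with 86.9 ± 17.3. The most abundant chains in Control were COL27A1 with 52.1 ± 2.70 FPKM, COL18A1 with 51.7 ± 10.2, COL4A2 with 48.3 ± 7.55, COL5A1 with 43.1 ± 5.78 and COL16A1 with 43.0 ± 3.05. These chains follow each other closely, and neighbours in this order differ by less than their spread. With COL12A1 they made up 69.8% to 73.7% of the summed collagen FPKM of a Control library and 67.3% to 71.2% of a CPI-613 library.

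**Figure D1:**
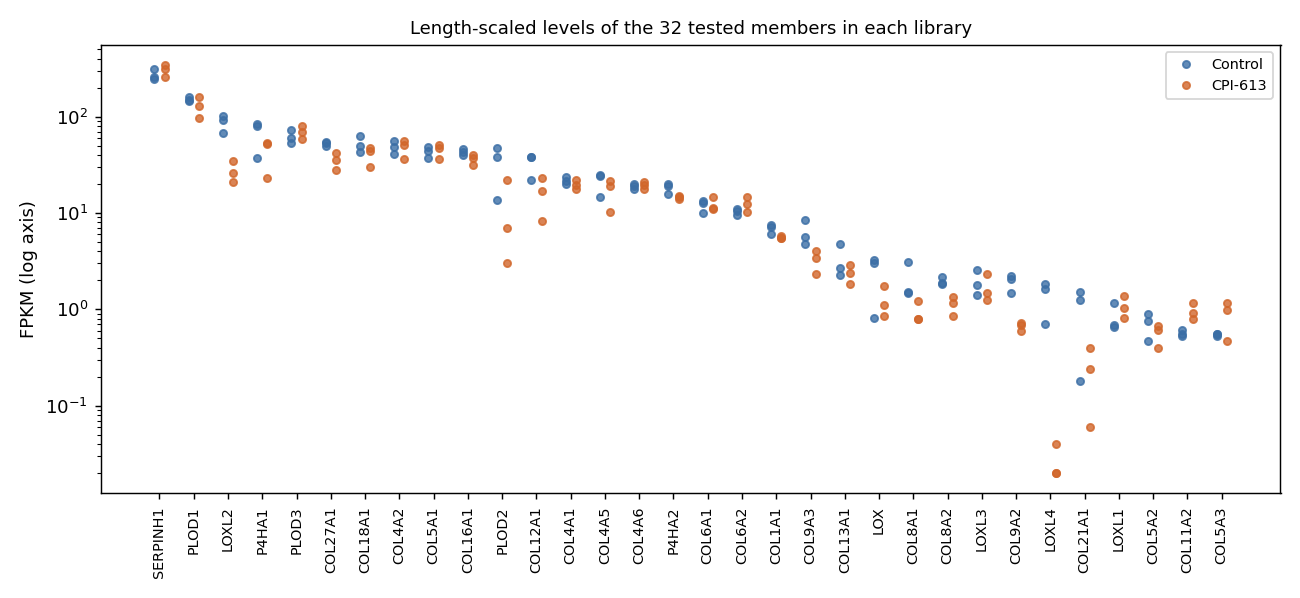
FPKM on a log axis for the 32 tested members, ordered by their Control mean, with 1 point per library (blue Control, orange CPI-613). SERPINH1 and PLOD1 lie at the top, and the CPI-613 points of LOXL4 lie at 0.02 to 0.04 FPKM against 0.70 to 1.81 in Control.

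Markers of squamous epithelium were present, among them KRT5 with 2231 ± 295 CPM, KRT14 with 1292 ± 228 CPM and TP63 with 260 ± 89.2 CPM in Control. With CPI-613 they measured 962 ± 552, 1080 ± 565 and 214 ± 80.9 CPM. From scaled counts none of these 3 was called by edgeR. KRT5 was below Control in all treated libraries and was called lower GC- and length-adjusted (log2 fold change -1.46, SE 0.27; adjusted p = 0.0139 by edgeR, and between 0.00418 and 0.641 across the settings), and the part of this in the results was not tested. Of 9 fibroblast markers in the table, PDGFRA, THY1, FAP and TCF21 had at most 3 counts in any library. The other 5 passed the filter on low counts. Their Control means were 61.8 CPM for FBLN1, 6.23 for MFAP5, 3.64 for ACTA2, 3.59 for S100A4 and 2.82 for PDGFRB. The 9 markers summed to 77.2 to 80.0 CPM in Control and 38.8 to 75.3 CPM with CPI-613, most of it from FBLN1, and the part of this in the results was not tested. In bulk RNA of this single line, fewer cells expressing a gene and less of its RNA per cell cannot be told apart.

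In the comparison of CPI-613 with Control, LOXL4 fell and no other member was called by edgeR's quasi-likelihood test with Benjamini-Hochberg adjustment over all 12671 genes at 0.05. The count of 1 of 32 members stands beside 3.18% of all genes tested, and 1.24% of all genes were called lower, so the share of members called was near the background. The members' median log2 fold change was -0.12, against 0.02 for all genes tested. In 9 members all CPI-613 libraries lay beyond all Control libraries, 3 above and 6 below. These 28.1% compare with 21.0% of all genes tested, and the 6 below with 9.17%. GC- and length-adjusted, 1 member was called higher and 6 lower. That is 21.9% of the members, beside 11.7% of all genes in that fit, and 5.01% of all genes were called lower there.

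**Figure D2:**
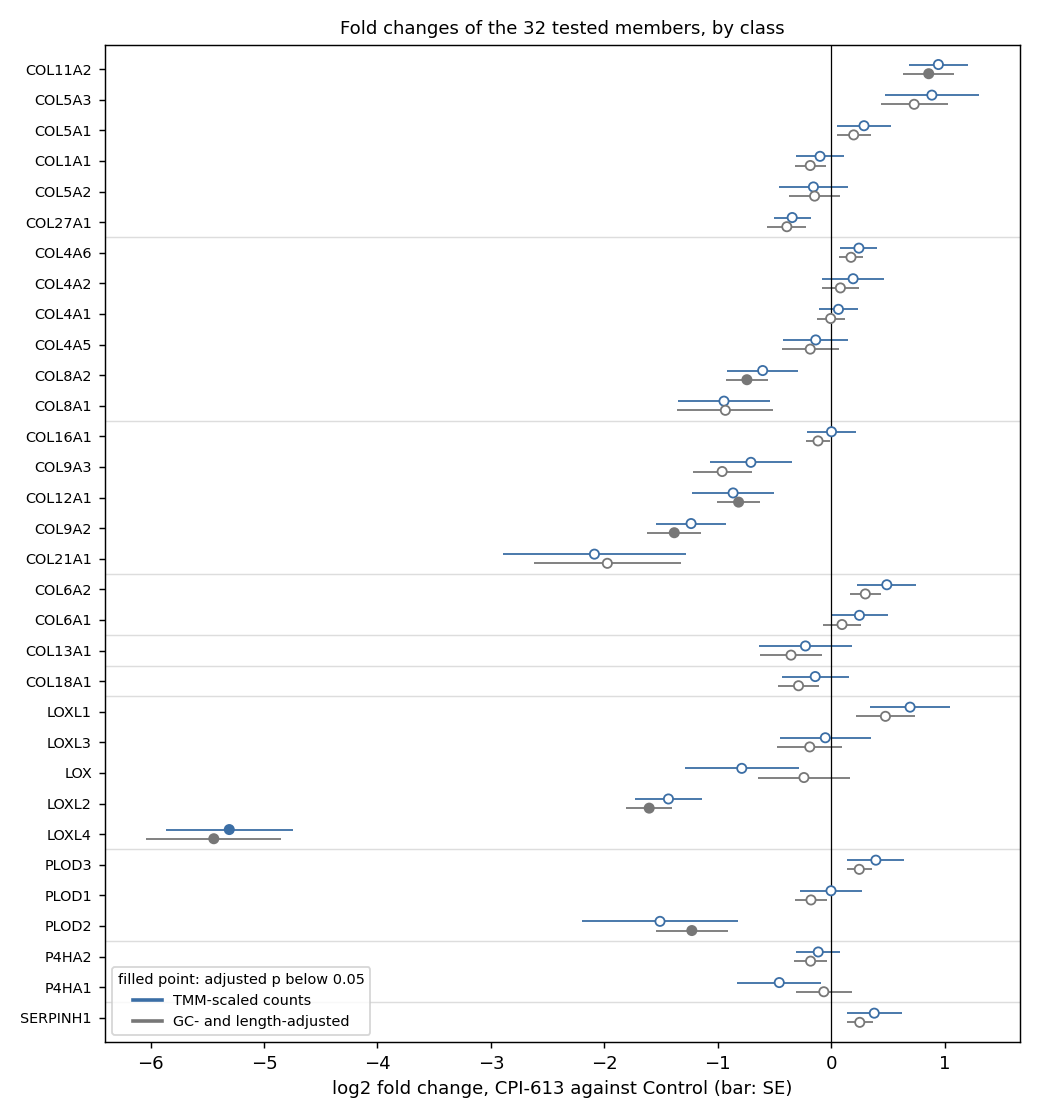
Log2 fold change of CPI-613 against Control with its SE for the 32 tested members, grouped by class, from scaled counts (blue) and GC- and length-adjusted (grey). Filled points have an adjusted p below 0.05 by edgeR, which holds for LOXL4 at -5.31 in the first and for 7 members in the second.

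The lysyl oxidases were the class with the widest range of fold changes, from LOXL4 at -5.31 to LOXL1 at 0.70 on the log2 scale. LOXL4 (gene ID 84171) encodes an extracellular copper-dependent amine oxidase with scavenger receptor domains and spans 98247690 to 98268194 of chromosome 10 in GRCh38. Its reads numbered 70, 30 and 68 in Control replicates 1 to 3 and 1, 1 and 2 in CPI-613 replicates 1 to 3. In CPM these are 5.49, 2.33 and 5.19 against 0.0713, 0.0769 and 0.155. Every treated library was thus close to the limit of detection while no Control library held fewer than 30 reads. Summed over the libraries, the level was 43.3 times higher in Control, with an exact 95% interval of 16.6 to 161 that covers counting error only. The fitted log2 fold change of -5.31 (SE 0.56) passed edgeR's test (adjusted p = 0.0072, and between 1.44e-07 and 0.0673 across the settings), and its size depends on the prior count. LOXL4 missed the threshold without Control replicate 1, without Control replicate 3 and without CPI-613 replicate 2, at an edgeR adjusted p of 0.0666, 0.0635 and 0.0673, where edgeR called 0, 0 and 7 of all genes.

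The 250 bases before the RefSeq start of LOXL4 are shown because it is the member with the call. They are chr10:98268195-98268444, minus strand, GRCh38.p14, written 5′ to 3′, with capitals marking GGGCGG on either strand, the GC box:

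LOXL4: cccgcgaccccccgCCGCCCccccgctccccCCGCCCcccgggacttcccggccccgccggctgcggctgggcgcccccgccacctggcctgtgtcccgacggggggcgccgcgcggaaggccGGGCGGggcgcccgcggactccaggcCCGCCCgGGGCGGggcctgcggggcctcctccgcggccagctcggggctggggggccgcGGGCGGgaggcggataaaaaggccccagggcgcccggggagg

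The window holds 6 GC boxes, a motif found in 42.6% of all 35116 RefSeq windows of this length. None of ACGTG (a form of the core of the hypoxia response element, in 18.5% of windows), TGANTCA (AP-1, 6.57%), TGATGNAA (the element bound by ATF4 and C/EBP factors, 3.14%) or CCAAT (32%) was found on either strand, which says only that these letters are not in this window. Other forms of the hypoxia core were not searched in any window.

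LOXL2 oxidises lysines in collagen IV and fibrillar collagens and was the most abundant lysyl oxidase. Its levels were 316, 228 and 300 CPM in Control replicates 1 to 3 and 70.5, 97.2 and 145 CPM in CPI-613 replicates 1 to 3. The deposited counts list only 1 transcript for LOXL2. All treated libraries lay below all Control libraries. The difference of -1.43 (SE 0.29) on the log2 scale was just short of a call (adjusted p = 0.0519 by edgeR). GC- and length-adjusted it was -1.60 (SE 0.20) and passed (adjusted p = 0.00279 by edgeR, and between 0.000342 and 0.262 across the settings), with every single library left out as well. LOXL2 was called lower in 17 of the 25 settings run and LOXL4 in 22.

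LOX, the founding lysyl oxidase, measured 13.1, 3.81 and 14.7 CPM in Control and 7.84, 5.61 and 4.80 CPM with CPI-613, with Control replicate 2 below every treated library. LOXL1, known for its role in elastic fibres, measured 1.57, 1.40 and 1.22 CPM and 1.71, 1.85 and 3.25 CPM, all treated libraries above Control but within a narrow range apart from CPI-613 replicate 3. GC- and length-adjusted, its groups overlapped, with CPI-613 replicate 2 at 1.734 CPM and Control replicate 1 at 1.795 CPM. LOXL3 measured 3.45, 5.90 and 4.20 CPM and 3.35, 2.998 and 6.74 CPM, with full overlap. None of these was called, by edgeR, DESeq2 or limma-voom. Over the whole family, the summed FPKM was 107.9, 72.1 and 100.04 in Control and 25.4, 29.2 and 39.2 with CPI-613, a sum that consists mostly of LOXL2.

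**Figure D3:**
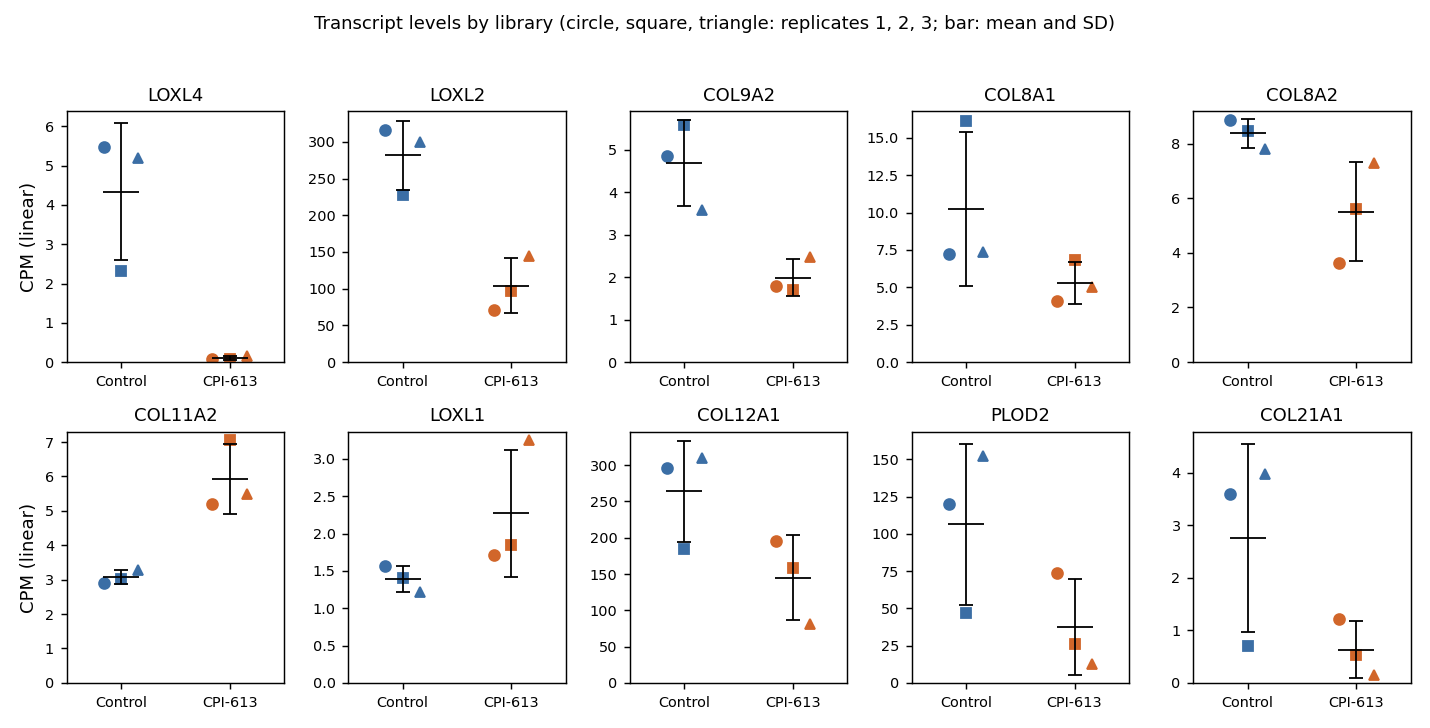
CPM on linear axes in each library for the members whose groups did not overlap with a log2 fold change of at least 0.58 in size, and for COL12A1, PLOD2 and COL21A1, added after their values were seen (circle, square and triangle for replicates 1 to 3, bars for mean and SD). LOXL4 lies near 0 in all CPI-613 libraries, LOXL2 and COL9A2 are lower in all of them, and PLOD2, COL12A1 and COL21A1 overlap between the groups.

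Among lysyl hydroxylases, PLOD2, which hydroxylates the lysines of collagen telopeptides, measured 120, 46.8 and 152 CPM in Control and 73.7, 25.8 and 12.6 CPM with CPI-613. CPI-613 replicate 1 lay above Control replicate 2, so the groups overlapped. Its log2 fold change of -1.51 (SE 0.69) was not called (adjusted p = 0.39 by edgeR). PLOD2 has the lowest GC content of the tested members, 37.6%, and the libraries with little of it, Control replicate 2 and CPI-613 replicates 2 and 3, are those with fewer reads from low-GC genes. GC- and length-adjusted, its levels were 92.9, 49.4 and 109 CPM in Control and 47.2, 30.4 and 29.02 CPM with CPI-613, which no longer overlap, and the log2 fold change of -1.23 (SE 0.32) passed (adjusted p = 0.0456 by edgeR, and between 0.0153 and 0.928 across the settings). That call ended without Control replicate 1, Control replicate 3, CPI-613 replicate 2 or CPI-613 replicate 3.

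The bases before the start of PLOD2, a known target of hypoxia-inducible factor, are shown beside those of LOXL4. Whether this factor acts on either gene in these cells was not tested. They are chr3:146161185-146161434, minus strand, GRCh38.p14, with the ACGTG form of the hypoxia core, the GC box and the CCAAT box in capitals on either strand:

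PLOD2: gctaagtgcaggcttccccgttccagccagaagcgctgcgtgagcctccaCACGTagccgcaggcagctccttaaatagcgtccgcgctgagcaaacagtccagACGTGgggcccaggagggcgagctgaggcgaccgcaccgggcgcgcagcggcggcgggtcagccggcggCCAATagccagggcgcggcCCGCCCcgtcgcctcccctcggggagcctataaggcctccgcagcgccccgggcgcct

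ACGTG or its complement begins 200 and 146 bases before the start, and 1 CCAAT and 1 GC box lie nearer to it. Of 52 windows of this length for 37 members with a RefSeq entry, 11 hold ACGTG, beside 18.5% of all windows.

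PLOD1, a lysyl hydroxylase of the helical region, measured 399, 387 and 383 CPM in Control and 253, 383 and 532 CPM with CPI-613. The Control libraries were nearly equal while the treated ones spanned a wide range on both sides of them. PLOD3, which also adds sugars to hydroxylysine, measured 140, 182 and 127 CPM and 146, 194 and 250 CPM (log2 fold change 0.39, SE 0.25). GC- and length-adjusted, its groups no longer overlapped (153, 169 and 142 against 182, 185 and 184.5 CPM). The adjusted log2 fold change of 0.25 (SE 0.11) was not called (adjusted p = 0.209 by edgeR). For prolyl 4-hydroxylase, P4HA1 measured 180, 90.3 and 193 CPM and 124, 144 and 69.6 CPM, and P4HA2 80.1, 67.7 and 79.3 CPM and 59.4, 70.1 and 80.4 CPM. The groups overlapped in both subunits, and the log2 fold change of P4HA1 went from -0.46 (SE 0.37) to -0.06 (SE 0.25) when GC- and length-adjusted. SERPINH1 measured 422, 559 and 419 CPM and 452, 617 and 752 CPM, and the log2 difference of 0.38 (SE 0.24) was not called (adjusted p = 0.593 by edgeR). GC- and length-adjusted, its groups no longer overlapped (455.5, 529 and 458 against 545, 593 and 580.5 CPM). The adjusted log2 fold change of 0.25 (SE 0.11) was not called either (adjusted p = 0.216 by edgeR).

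Of the 21 tested collagen chains none was called by edgeR from scaled counts. At an unadjusted p under 0.05, 1 was higher and 3 were lower, beside 8.45% of all genes higher and 5.93% lower. DESeq2 called 1 chain lower, beside 3.17% of all genes, and limma-voom called none, beside 1.32%. GC- and length-adjusted, edgeR called 1 chain higher and 3 lower, beside 6.65% of all genes higher and 5.01% lower. The summed level of the 37 chains was 2155, 2073 and 2036 CPM in Control and 1696, 2124 and 2248 CPM with CPI-613, so the total overlapped between the groups. In summed FPKM, as the authors scaled them, it was 405, 371 and 366 against 295, 335 and 324, with no overlap, and FPKM are scaled to the library total alone.

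Fibril-associated collagens, which sit on the surface of fibrils, had the lowest median of the collagen classes with more than 1 tested gene, a log2 fold change of -0.86 over 5 tested genes, against 0.02 for all genes. COL9A2 (gene ID 1298), a chain of collagen IX on chromosome 1 at 40300489 to 40317286, measured 4.86, 5.59 and 3.59 CPM in Control and 1.78, 1.69 and 2.48 CPM with CPI-613. Every treated library was below every Control library, at 22 to 32 reads against 47 to 72. Its log2 fold change was -1.23 (SE 0.31; adjusted p = 0.097 by edgeR) and GC- and length-adjusted -1.38 (SE 0.24), which passed (adjusted p = 0.00975 by edgeR, and between 0.00784 and 0.428 across the settings). The adjusted call ended without Control replicate 1 or CPI-613 replicate 2, and DESeq2 called COL9A2 lower.

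The bases before its start are shown as those of the collagen chain called in the most settings, 10 of 25. They are chr1:40317287-40317536, minus strand, GRCh38.p14, with GGGCGG on either strand in capitals:

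COL9A2: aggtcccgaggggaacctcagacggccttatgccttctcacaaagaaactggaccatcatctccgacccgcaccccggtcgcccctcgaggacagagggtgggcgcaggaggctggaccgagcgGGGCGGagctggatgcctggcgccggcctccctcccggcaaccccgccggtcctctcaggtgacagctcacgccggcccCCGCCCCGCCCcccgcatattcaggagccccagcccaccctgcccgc

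The 3 GC boxes, a pair of which overlap, are the matches found among the 5 motifs searched.

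COL9A3, another chain of collagen IX, measured 17.2, 10.5 and 11.8 CPM in Control and 4.99, 8.23 and 10.9 CPM with CPI-613, where CPI-613 replicate 3 lay above Control replicate 2. GC- and length-adjusted, its groups did not overlap (19.2, 9.695 and 13.7 against 6.51, 7.58 and 7.72 CPM). It was not called in either fit (GC- and length-adjusted log2 fold change -0.96, SE 0.26; adjusted p = 0.0548 by edgeR, and between 0.0227 and 0.997 across the settings). COL12A1, a large fibril-associated chain, measured 296, 185 and 311 CPM and 196, 158 and 81.0 CPM. CPI-613 replicate 1 lay slightly above Control replicate 2. Its log2 fold change of -0.86 (SE 0.36) was not called, while -0.82 (SE 0.19), GC- and length-adjusted, passed (adjusted p = 0.0315 by edgeR, and between 0.0175 and 0.848 across the settings), a call that ended without Control replicate 1, Control replicate 3 or CPI-613 replicate 2. COL21A1 had 46, 9 and 52 reads in Control and 17, 7 and 2 with CPI-613, overlapping through Control replicate 2. Its log2 fold change was -2.09 (SE 0.80), the lowest estimate among the tested chains, and was not called (adjusted p = 0.288 by edgeR). GC- and length-adjusted it was -1.97 (SE 0.65) and not called either (adjusted p = 0.0986 by edgeR). COL21A1 was called lower in 2 of the 25 settings, GC- and length-adjusted without Control replicate 2 and without CPI-613 replicate 1 (adjusted p = 0.0265 and 0.0495 by edgeR). COL16A1 measured 171, 169 and 158 CPM and 124, 171 and 205 CPM.

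Of 6 tested network-forming chains none was called from scaled counts and 1, COL8A2, was called lower GC- and length-adjusted. The basement membrane chains COL4A1 and COL4A2, whose products assemble into the same collagen IV molecule, measured 134, 131 and 117 CPM and 269, 338 and 237 CPM in Control. With CPI-613 they measured 119, 148 and 133 CPM and 217, 335 and 413 CPM. Neither moved beyond its spread, with log2 fold changes of 0.06 (SE 0.17) and 0.19 (SE 0.27). The FPKM ratio of COL4A2 to COL4A1 was 2.04, 2.62 and 2.05 in Control and 1.85, 2.30 and 3.14 with CPI-613, highest in CPI-613 replicate 3. COL4A2 transcripts hold 62.0% GC and those of COL4A1 55.4%, and the part of this difference in the ratio was not tested.

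COL4A1 and COL4A2 are transcribed in opposite directions from starts that lie 127 bases apart. The 126 bases between the RefSeq starts are shown because both chains depend on this stretch. They are chr13:110307158-110307283, plus strand, GRCh38.p14, with the CCAAT box and the GC box in capitals on either strand:

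COL4A1 to COL4A2: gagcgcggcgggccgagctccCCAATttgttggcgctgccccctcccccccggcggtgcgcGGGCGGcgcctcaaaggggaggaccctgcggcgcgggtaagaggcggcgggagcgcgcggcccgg

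It holds 1 CCAAT box and 1 GC box and none of the other motifs searched.

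COL4A6, a chain of epithelial basement membranes, measured 115, 108 and 113 CPM in Control and 119, 144 and 136 CPM with CPI-613. All treated libraries lay above Control, by a log2 fold change of 0.25 (SE 0.16) that was not called. COL4A5, its neighbour on the X chromosome, measured 138, 83.6 and 140 CPM and 126, 126 and 76.3 CPM. Of the short-chain collagens, COL8A1 measured 7.21, 16.2 and 7.33 CPM in Control and 4.06, 6.84 and 5.04 CPM with CPI-613, and COL8A2 8.86, 8.46 and 7.79 CPM and 3.64, 5.61 and 7.28 CPM. In both chains of collagen VIII every treated library was below every Control library. Neither was called from scaled counts (log2 fold changes of -0.94, SE 0.41, and -0.60, SE 0.31). COL8A2 passed GC- and length-adjusted at -0.74 (SE 0.19; adjusted p = 0.0436 by edgeR, and between 0.0424 and 0.997 across the settings), which ended without any 1 of the Control libraries or without CPI-613 replicate 2.

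Fibrillar collagens were led by COL5A1, which helps to start fibrils, with 356, 293 and 334 CPM in Control and 285, 415 and 501 CPM with CPI-613, and by COL27A1, a cartilage-type fibrillar chain. COL27A1 measured 268, 284 and 253 CPM and 227, 216 and 192 CPM, with every treated library below Control by a small margin (log2 fold change -0.34, SE 0.16, not called). It was called lower in 1 setting, GC- and length-adjusted without CPI-613 replicate 1 (adjusted p = 0.0332 by edgeR). COL5A2, whose product usually joins that of COL5A1 in collagen V, stood at 0.707 ± 0.215 FPKM in Control, while COL5A1 stood at 43.1 ± 5.78. COL1A1, the main chain of collagen I, measured 36.4, 33.1 and 39.5 CPM and 29.9, 33.1 and 38.8 CPM, and the groups overlapped almost fully.

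COL11A2, a chain of collagen XI, was the 1 member called higher after GC and length adjustment. It measured 2.90, 3.03 and 3.28 CPM in Control and 5.21, 7.07 and 5.50 CPM with CPI-613, from 37 to 43 and 71 to 92 reads. All treated libraries lay above Control, with a log2 fold change of 0.95 (SE 0.26) that was not called and an adjusted one of 0.86 (SE 0.22) that passed (adjusted p = 0.0479 by edgeR, and between 0.0241 and 0.555 across the settings). It stayed called with CPI-613 replicate 3 left out and not with any other library left out. COL5A3 measured 2.59, 3.11 and 3.13 CPM and 2.71, 5.61 and 8.06 CPM, with CPI-613 replicate 1 among the Control values, and was called higher in 1 setting, GC- and length-adjusted without CPI-613 replicate 1 (adjusted p = 0.0214 by edgeR).

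In collagen VI, the beaded filament collagen, COL6A1 measured 47.7, 38.4 and 46.8 CPM and 41.4, 47.4 and 69.1 CPM, and COL6A2 30.9, 29.1 and 30.5 CPM and 30.5, 41.6 and 55.1 CPM. Neither was called, and COL6A3, the third chain of the usual molecule, had 1 to 6 reads per library. GC- and length-adjusted, COL6A2 no longer overlapped (33.7, 27.5 and 34.5 against 38.0, 38.5 and 41.3 CPM). Its adjusted log2 fold change of 0.30 (SE 0.14) was not called (adjusted p = 0.223 by edgeR). The multiplexin COL18A1, source of endostatin, measured 233, 316 and 205 CPM and 147, 242 and 294 CPM, and the transmembrane COL13A1 6.43, 12.6 and 5.73 CPM and 4.71, 7.07 and 9.37 CPM. Both overlapped between the groups and were not called.

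Estimated counts per transcript are given for PLOD2, COL18A1, COL16A1 and SERPINH1, which were not picked by a set rule. Reads shared by transcripts were split by a counter that is not named. The PLOD2 transcript NM_182943 took 70.6%, 74.9% and 76.2% of that gene's counts in Control and 75.8%, 67% and 100% with CPI-613, the last over 163 reads. In COL18A1 the transcript NM_030582 took 1.12%, 1.85% and 1.20% in Control and 0%, 0% and 0.223% with CPI-613, a small part of the gene in every library. The COL16A1 transcript XM_011540723 took 12.2%, 15.7% and 9.16% in Control and 0.18%, 0.23% and 3.79% with CPI-613. The SERPINH1 transcript NM_001207014 took 0.44%, 1.77% and 1.42% in Control and 3.55%, 4.09% and 2.24% with CPI-613. Differences in these shares were not tested.

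**Figure D4:**
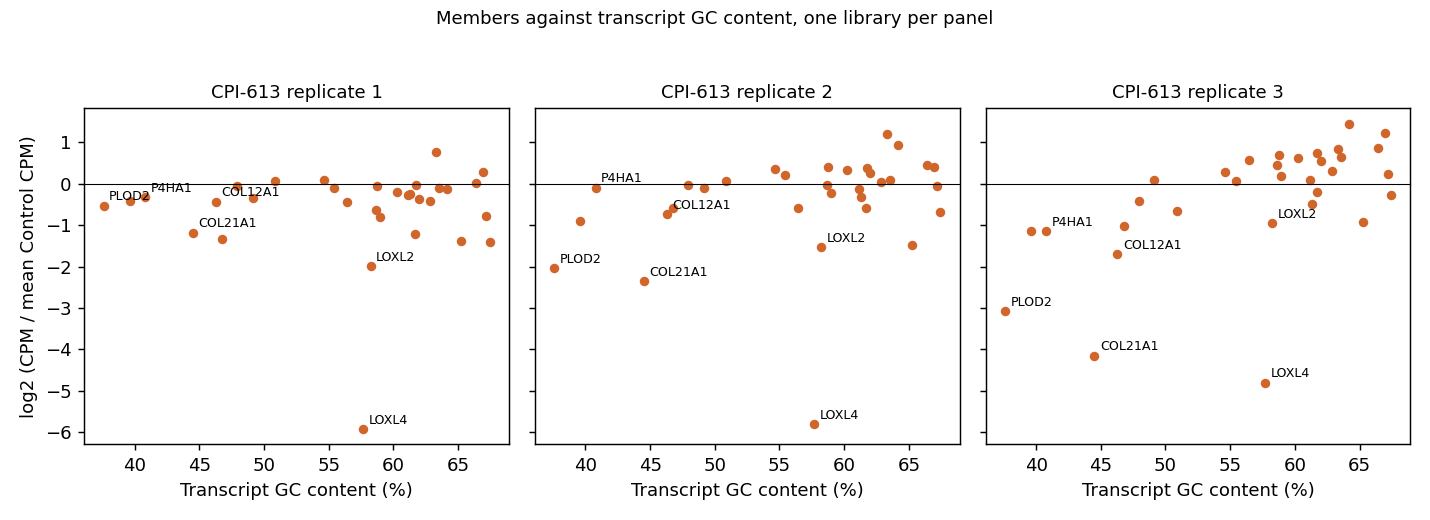
Log2 of each CPI-613 library's CPM over the Control mean, against transcript GC content, for the 32 tested members, with 1 panel per library. In replicate 3 PLOD2, LOX (not labelled), P4HA1, COL21A1 and COL12A1, at 37.6% to 46.3% GC, lie below most others. LOXL4 and LOXL2 are below 0 in all 3 panels.

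Other genes of the collagen pathway were mostly not called. Of 14 genes for further folding and modification of collagen, edgeR called 1 higher, COLGALT2, and none lower from scaled counts. At an unadjusted p under 0.05, 1 of the 14 was higher and 2 were lower, beside 8.45% of all genes higher and 5.93% lower. DESeq2 called 1 higher and 1 lower, beside 491 and 402 of all genes. The limma-voom fit called 1 higher, beside 247 of all genes. COLGALT2, a galactosyltransferase for hydroxylysine, had 1, 1 and 2 reads in Control and 15, 11 and 16 with CPI-613, 10.2 times higher (exact 95% interval 3.69 to 39.1, counting error only; adjusted p = 0.0162 by edgeR, and between 0.00482 and 0.128 across the settings). Its far more abundant counterpart COLGALT1, named after its values were seen, measured 453 ± 60.3 and 619 ± 195 CPM and was not called. P3H3, of the prolyl 3-hydroxylase family, measured 22.6 ± 2.72 and 13.0 ± 4.72 CPM and was called lower GC- and length-adjusted (log2 fold change -1.01, SE 0.14; adjusted p = 0.00474 by edgeR, and between 0.00474 and 0.81 across the settings). SPARC, a collagen-binding matrix protein, measured 473 ± 23.5 and 236 ± 75.4 CPM, with all treated libraries below Control, and was called in neither fit (adjusted p = 0.11 and 0.059 by edgeR, and between 0.00695 and 0.381 across the settings). P3H3 and SPARC were named after their values were seen.

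None of 10 genes of procollagen export, 6 procollagen-processing proteases, 7 collagen receptors and 12 genes of collagen degradation was called by edgeR from scaled counts, beside 3.18% of all genes. At an unadjusted p under 0.05, 2 were higher and 1 lower in export, 2 lower among the proteases, none among the receptors and 3 higher and 2 lower in degradation, beside 8.45% of all genes higher and 5.93% lower. In these 4 lists DESeq2 called 1 degradation gene lower and no other gene, and limma-voom called none. Of all 12671 genes, DESeq2 called 491 higher and 402 lower, and limma-voom 247 and 167. The receptor tyrosine kinase DDR1 measured 901 ± 48.7 and 1159 ± 306 CPM, the integrin subunit ITGB1 594 ± 164 and 722 ± 424 CPM, and BMP1, which removes procollagen C-propeptides, 148 ± 12.4 and 135 ± 31.6 CPM. The protease gene TLL2 measured 7.35 ± 0.849 and 6.40 ± 1.42 CPM. Of the export genes, SAR1A, a GTPase of COPII vesicles, measured 157 ± 6.26 and 131 ± 8.73 CPM and KLHL12, an adaptor for large COPII coats, 72.3 ± 7.91 and 105 ± 1.28 CPM. MMP14, a membrane-bound collagenase, measured 571 ± 47.1 and 972 ± 269 CPM and CTSB, a lysosomal protease, 649 ± 53.2 and 393 ± 136 CPM. In MMP14 all treated libraries were above Control and in CTSB all were below. The GC- and length-adjusted edgeR fit called MMP14 (adjusted p = 0.0106) and KLHL12 (0.0327) higher and CTSB (0.0256) lower. Across the settings these adjusted p-values ranged from 0.00587 to 0.648, 0.0211 to 0.65 and 0.00614 to 0.746. That fit did not call DDR1, ITGB1, BMP1, TLL2 or SAR1A. GC- and length-adjusted, edgeR called 1 of 14 folding and modification genes higher and 1 lower, 3 of 10 export genes higher, 1 of 6 proteases lower, none of 7 receptors, and 3 of 12 degradation genes higher and 2 lower, beside 6.65% of all genes higher and 5.01% lower.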

How the data were processed

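RNA of 6 HN12 samples was sequenced, 3 per group by their titles. Per the submitters' processing notes, the tools were STAR 2.5, HTSeq, CASAVA, DESeq2 and edgeR 3.16.5 and the build hg38, with no roles given. Which program split reads among transcripts, its annotation and strand setting were not stated there. Of the deposited tables, one gives estimated counts for RefSeq transcripts. The other deposited table names no unit and was taken as FPKM of the authors, since over 1460 genes with a single transcript the worth of 1 read followed the inverse library total within 0.63%.

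Transcripts with a date in place of a number (27, none of a member) were left out. Counts were summed per gene, rounded, filtered with filterByExpr (minimum 10, total 15), and, after TMM scaling, compared in edgeR 4.0.16 (quasi-likelihood, group as covariate, two-sided, Benjamini-Hochberg over 12671 genes). SE is the log2 fold change over the square root of F. The 53 genes without a symbol hold 0.0163% of counts. Total counts were 11531949 to 15486514 per library, and no replicate pair agreed within counting noise (chi-square per degree of freedom at least 3.72). For GC and length adjustment, each library's deviation of log2 CPM (prior count 2) was fitted with splines of 5 degrees of freedom on GC content and log length of the longest protein-coding GENCODE 29 transcript (99.5% of tested genes) and entered as offsets. Promoter windows and positions come from RefSeq, GRCh38.p14. The edgeR fit from scaled counts, without GC and length adjustment, was tested on simulated data, and the other fits were not.

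Alternatives were other scalings, filters, DESeq2 1.42.0, limma-voom and limma 3.58.1 on log2(FPKM + 1) and log2(FPKM + 0.1), a replicate block, leaving out each library, and a threshold of 0.01. Members and gene lists were chosen with earlier results of these data known. Values by library are given for members called, for members without overlap and a log2 fold change of at least 0.58 in size, and for the 3 most abundant of each class. COL4A5, COL5A3 and COL21A1 were added after their values were seen. From other lists up to 4 called genes, or up to 2 of the most abundant, are named.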

Additional observations from a re-analysis of the deposited data

How the results depend on the processing

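From scaled counts 1 member was called lower, 0 higher, and 403 genes in all. Members called lower numbered 2 with the DESeq2 size factors, upper quartile scaling or limma-voom, and 3 with library size only, DESeq2 and both FPKM fits. GC- and length-adjusted there were 6 lower, 1 higher and 1477 genes in all. DESeq2 called 893 genes, and a threshold of 0.01 left 70. With the replicate block 191 genes and 1 member were called, and with block and GC and length adjustment 890 genes and 4 members, all lower. Same-numbered libraries deviated together in the first pair only (r of 0.457, -0.096 and -0.608 across genes), so the numbers were not taken as pairs. Leaving out each library gave 0 to 905 genes, 0 to 3 members lower and 0 higher. With GC and length adjustment, the fits without Control replicates 1, 2 and 3 called 620, 1432 and 646 genes and 2, 7 and 3 members lower. Those without CPI-613 replicates 1, 2 and 3 called 2659, 604 and 1439 genes and 8, 2 and 5 members lower. At most 1 member was higher in any of them. LOXL4 and LOXL2 were called in each of those 6 adjusted fits. No called member changed sign in any setting. Scaling by library size alone shifted all genes, whose median went from 0.02 to -0.17 on the log2 scale, and the members' median went from -0.12 to -0.32. Estimates changed sign with no call on either side in 55 combinations of member and setting, and kept it in the others. Where counts moved, the cause was not tested. The fits with a library left out also had fewer libraries, and the part of this was not tested. Depth limits LOXL4, COLGALT2 and the 17 members that were too low to test.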
